A study of Homo sapiens with 6 samples.

Results

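The 4 libraries described here were made from fixed cells with a reverse crosslinking buffer that holds no SDS, and they differ by whether the DNA was purified before PCR. They were chosen by protocol, as the 2 bulk MI-ATAC-seq libraries, in which PCR followed reverse crosslinking directly (unpurified), and the 2 libraries of fixed ATAC-seq with the new buffer, in which the DNA was purified first (purified). They are 4 of the 6 libraries of the series, and together they called 49890 of its 56447 merged regions. The other 2 libraries, with the traditional SDS buffer and purification, are given as side values, and their peaks also entered the merging of regions. All 6 were made from GM12878, an established human B lymphoblastoid cell line transformed with Epstein-Barr virus, fixed with 1% formaldehyde and transposed for 30 min at 37 °C, with no antibody. The sample labels name the new buffer but not the purification, which the legend of the study's supplement gives. The sample records give the lysis detergent (0.05% Igepal), the quenching with 40 mM EDTA and the small reverse crosslinking volume (20 µl) in the same words for every library, while the study's methods give these steps for the unpurified workflow and another protocol for fixed ATAC-seq. Purification can therefore not be told apart from any difference in these steps. Nothing says that the 2 replicates of a group were separate cultures, so their spread may be technical.

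In ATAC-seq the Tn5 transposase inserts sequencing adapters where DNA is not covered by nucleosomes, and fragments pile up at promoters, enhancers and insulators. Formaldehyde links protein to DNA, so the transposed fragments have to be released by heat and protease before they can be amplified. SDS helps this step but inhibits the polymerase, and a column that removes the SDS can also lose DNA, which is why a buffer without SDS allows the wash to be skipped when a reaction holds few cells. In a B lymphoblastoid line the accessible promoters include those of housekeeping genes, of B cell receptor and antigen presentation genes, and of the NF-kB pathway that the viral membrane protein LMP1 keeps active.

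Sequence is shown for the strongest region at a promoter and the strongest outside promoters that both libraries of 1 group called and neither of the other did, because these 4 are the strongest regions that the lists of the groups do not share. Each line gives the summit, which is the base with the most reads, and 100 bases on each side, on the + strand of GRCh37 (hg19). Capitals mark a match to any of 11 transcription factor motifs searched on both strands. Only the PSMD4 promoter held a match, to the reverse complement of the NFY letters CCAATC, and a match is a description of the letters and not of binding.
PSMD4 promoter, unpurified only, chr1:151227018-151227218: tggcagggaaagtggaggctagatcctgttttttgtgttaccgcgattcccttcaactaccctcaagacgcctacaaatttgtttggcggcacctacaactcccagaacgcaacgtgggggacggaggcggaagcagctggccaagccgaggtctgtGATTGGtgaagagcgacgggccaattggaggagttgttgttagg
LRRK2 intron, unpurified only, chr12:40719325-40719525: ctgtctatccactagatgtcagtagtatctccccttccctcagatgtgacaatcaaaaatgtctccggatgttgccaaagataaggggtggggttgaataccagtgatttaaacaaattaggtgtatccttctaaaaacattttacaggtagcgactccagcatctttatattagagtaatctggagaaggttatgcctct
NPEPPS promoter, purified only, chr17:45608396-45608596: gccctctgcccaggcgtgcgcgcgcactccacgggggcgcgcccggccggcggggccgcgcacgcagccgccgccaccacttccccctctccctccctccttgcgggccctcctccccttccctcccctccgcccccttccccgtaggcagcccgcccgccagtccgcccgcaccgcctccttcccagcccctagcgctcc
Intergenic, nearest gene STAMBP, purified only, chr2:74049521-74049721: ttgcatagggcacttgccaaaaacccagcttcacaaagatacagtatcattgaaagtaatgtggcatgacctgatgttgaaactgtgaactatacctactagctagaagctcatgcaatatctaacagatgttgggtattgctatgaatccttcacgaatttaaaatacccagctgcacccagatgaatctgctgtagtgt
The 2 promoter windows differed in base composition, with 54.7% GC at PSMD4 and 80.1% at NPEPPS. The 2 windows outside promoters each held 40.3% GC.

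The lists held 36252 and 34438 peaks in unpurified replicates 1 and 2, and 38023 and 30136 in purified replicates 1 and 2. Purified replicate 2 stood apart with the fewest peaks, and the direction of differences without it is given where it turned round. The lists give no read totals. The read pileup at each summit and its local background were solved from the deposited fold enrichment and p value, and the lowest background of a library, which scales with its depth, was 1.76 and 1.86 reads in the unpurified and 1.58 and 1.51 in the purified libraries. Depth thus varied by a factor of 1.24 among the 4, and both unpurified libraries were deeper than both purified ones. Differences between the groups can therefore not be told apart from a difference in depth. Promoters of 15 of 33 listed B cell genes (45.5%) were called in all 4 libraries, among them MS4A1, EBF1, CD74 and IRF4. That share was near the 48.0% of all protein-coding genes, so the count alone does not set B cell genes apart. CD37, BLK, IKZF3 and SPI1 were called in none of the 6 libraries. Of the markers of other cells, 4 of 15 T cell genes (CD247, CD8A, TCF7 and GATA3) and 0 of 15 myeloid and erythroid and 0 of 15 epithelial and hepatocyte genes were called in all 4.

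The first comparison asked whether leaving out purification changed the size of the regions called. Peak widths of the groups overlapped. The median width was 419 and 411 bp in the unpurified and 418 and 414 bp in the purified libraries, a mean of 415 ± 5.66 bp (SD, n = 2) against 416 ± 2.83 bp (SD, n = 2). The groups overlapped, and the difference between an unpurified and a purified library ranged from -7 to 5 bp over the 4 pairs (p = 1, exact two-sided permutation test, for which 0.33 is the smallest p that 2 libraries against 2 can give). Broad peaks over 1 kb made up 3.87% and 3.56% of the unpurified and 3.68% and 3.10% of the purified lists, which also overlapped (p = 0.67, exact permutation test). Over their whole lists the 2 SDS libraries had narrower peaks than each of the 4, with medians of 391 and 377 bp. Of 15 measures of the lists tested in this way, the Benjamini-Hochberg adjusted p was 1 for each.

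Width followed the place in the genome in every library. At promoters of protein-coding genes (summit within 1 kb of a TSS) the median width was 594 and 578 bp in the unpurified and 597 and 563 bp in the purified libraries. In introns of coding genes it was 367 and 356 bp against 366 and 359 bp, and between genes it was 365.5 and 360 bp against 366 and 358 bp. Promoter peaks were thus the broadest of the 3 classes in all 4 libraries, and within each class the groups overlapped. In the 21844 regions that all 4 libraries called, the peaks of unpurified replicate 1 were wider than those of purified replicate 1 in 47.8% of regions and wider than those of purified replicate 2 in 64.9%. The replicates of the purified group differed more from each other than that, with the first wider in 67.0% of regions. The mean difference in relative width of these shared regions was 0.028 on the log2 scale (p = 1, exact permutation test), and without purified replicate 2 it was -0.041. The SDS libraries were at -0.018 and -0.110 where they had a peak in these regions. They thus overlapped the others here, as the unpurified libraries were at 0.044 and -0.0019 and the purified ones at 0.062 and -0.075.

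**Figure D1:**
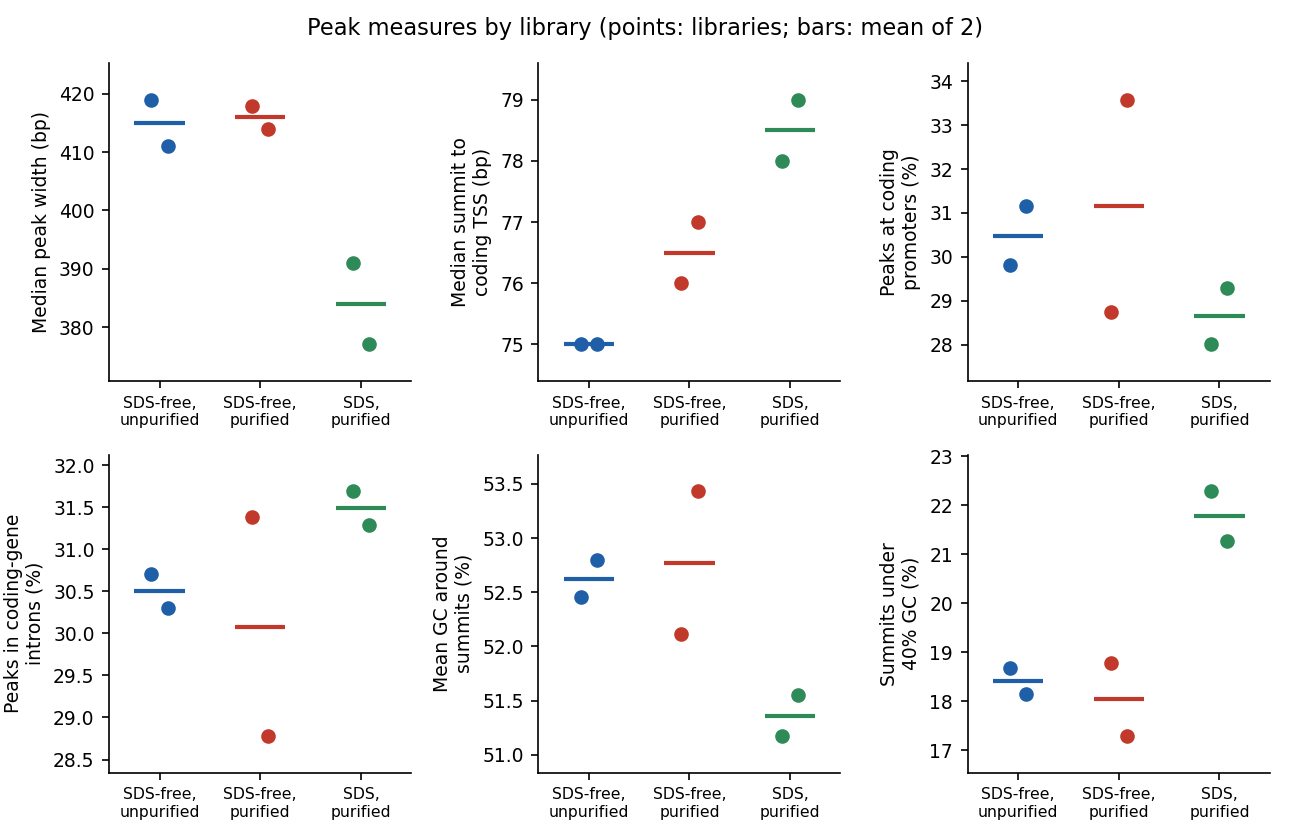
Each panel plots 1 measure of the peak lists on its vertical axis (bp or % of peaks, axes not starting at 0) for the 3 groups, with a point for each library and a bar at the mean of 2. The unpurified and purified SDS-free libraries overlap in every panel but the distance from summit to TSS, where they are at 75 and 75 against 76 and 77 bp.

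The second comparison concerned where the summit lay. Summits sat near the middle of the peaks in all 4 libraries. Their median distance from the midpoint was 21.7% and 22.1% of the way to the peak end in the unpurified and 21.9% and 22.4% in the purified libraries (p = 0.67, exact permutation test). For peaks at coding promoters, the median distance from summit to the nearest TSS was 75 bp in both unpurified libraries and 76 and 77 bp in the purified ones. It was the only measure of the 15 in which the groups did not overlap. The difference was -1.5 bp, its exact p of 0.33 is the smallest this design allows, and the adjusted p was 1. The SDS libraries were at 78 and 79 bp. Summits were upstream of the TSS in 66.1% and 66.7% of unpurified and 66.4% and 66.0% of purified promoter peaks, with no separation of the groups.

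The same site can also be compared region by region. In 17529 regions with exactly 1 peak in each of the 6 libraries, the summits of the 2 unpurified replicates lay a median of 54 bp apart, and those of the 2 purified replicates 55 bp. Between an unpurified and a purified library the median was 51 to 57 bp over the 4 pairs. Summits therefore moved as much between replicates as between groups. Strong regions held their summits more tightly. Where the weakest library had over 50 reads at the summit, the median displacement was 31 to 36 bp across groups and 33.5 to 34.5 bp between replicates. Where it had up to 20 reads, it was 62 to 69 bp across groups and 63 to 67 bp between replicates.

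**Figure D2:**
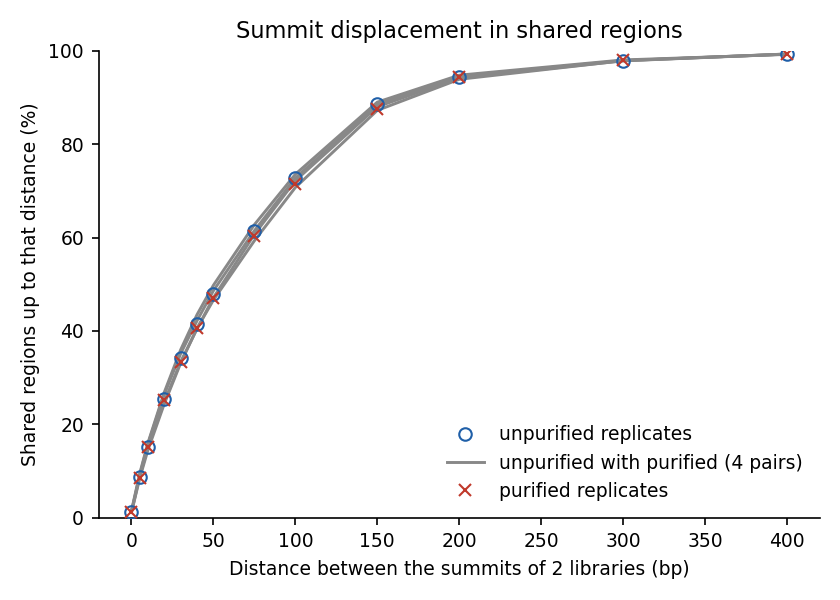
The vertical axis is the cumulative percentage of 17529 shared regions whose summits in a pair of libraries lie within the distance on the horizontal axis (bp), with grey lines for the 4 pairs of an unpurified with a purified library, circles for the unpurified replicates and crosses for the purified replicates. The symbols lie along the grey lines, and their medians are 54 and 55 bp against 51 to 57 bp.

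The third comparison was of gene classes. Coding promoters held 29.8% and 31.2% of the peaks of the unpurified libraries and 28.7% and 33.6% of those of the purified libraries (p = 1, exact permutation test). The 2 unpurified libraries lay between the 2 purified ones. The share followed the number of peaks, since the longest of the 4 lists had the lowest share and the shortest had the highest. Introns of coding genes held 30.7% and 30.3% against 31.4% and 28.8%, and intergenic sequence 24.04% and 23.4% against 24.2% and 22.7%. Other genes held 9.94% and 9.66% against 10.1% and 9.39%. LncRNA promoters held 4.01% and 4.12% against 3.99% and 4.09%, and coding exons 1.49% and 1.39% against 1.57% and 1.46%. None of these 6 classes separated the groups. Without purified replicate 2, the difference in coding promoters turned from -0.68 to 1.74 percentage points, and that in introns from 0.43 to -0.88, in other genes from 0.043 to -0.33 and in intergenic sequence from 0.26 to -0.49.

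Base composition, which PCR can favour or disfavour, did not separate the groups either. The mean GC content of the 100 bp on each side of summits was 52.5% and 52.8% in the unpurified and 52.1% and 53.4% in the purified libraries (p = 1, exact permutation test). AT-rich summits, with under 40% GC, made up 18.7% and 18.2% against 18.8% and 17.3%. GC-rich summits, with over 65% GC, made up 22.4% and 23.3% against 21.2% and 25.1%. Without purified replicate 2, the difference turned from -0.15 to 0.51 percentage points in mean GC, from 0.38 to -0.37 in AT-rich and from -0.28 to 1.69 in GC-rich summits. The SDS libraries held more AT-rich summits than each of the 4, at 22.3% and 21.3%.

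The fourth comparison listed the regions called in both libraries of 1 group and in neither of the other. Of the 49890 regions, 1349 (2.7%) were unpurified-specific and 879 (1.76%) were purified-specific, while 21844 (43.8%) were called by all 4. Regions called in a single library were more frequent than either set, with 7294 in 1 unpurified library alone and 7177 in 1 purified library alone. The group-specific regions were weak. The highest summit of a region held a median of 17 reads in the unpurified-specific and 16 in the purified-specific set, against 33 in regions called by all 4 and 20 in all regions. The highest in each set held 66 and 48 reads. In 48.6% and 54.6% of the regions of the 2 sets the weaker of the 2 peaks had a −log10 q under 5. Among regions whose highest summit held 16 to 18 reads, 5.84% were unpurified-specific and 3.10% purified-specific, while among those with over 50 reads there were 2 of 4487 and 0 of 4487, where a count of 0 allows up to 0.0669%. A group of 1 library has more specific regions by construction, and both counts rose by more than 1.5 times whichever library was left out. Without purified replicate 2 the unpurified-specific regions numbered 2222 and the purified-specific 6090, so that the order turned round. With the 30136 strongest peaks of each list the counts were 1054 and 976. Depth was higher in both unpurified libraries and cannot be told apart from the group in these counts.

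The places of the specific regions were alike in both sets and unlike those of the shared regions. Coding promoters made up 13.3% (179 regions, exact 95% interval 11.5 to 15.2%) of the unpurified-specific and 11.3% (99 regions, 9.25 to 13.5%) of the purified-specific set, against 39.5% of the regions called by all 4. Over all 49890 regions called by any of the 4, coding promoters made up 24.3%. Introns of coding genes made up 36.8% and 39.6%, against 33.4% of all regions, and intergenic sequence 30.8% and 30.4%, against 26.1%. LncRNA promoters made up 4.15% (3.15 to 5.36%) and 2.62% (1.67 to 3.90%), against 3.73% of all regions. These intervals overlap between the sets and cover counting error only. Mean GC was 48.5% and 47.6%, against 55.1% in the shared regions and 51.0% in all regions. The 2 sets lay nearest to 1199 and 818 genes, of which 170 were near both. The SDS libraries called both sets at close rates. Their calls were not part of the rule for a specific region, though their peaks entered the merging that set the region bounds. SDS replicate 1 called 49.96% (47.3 to 52.7%) of the unpurified-specific and 50.06% (46.7 to 53.4%) of the purified-specific regions, against 65.6% of all regions. SDS replicate 2 called 43.4% (40.8 to 46.1%) and 43.9% (40.6 to 47.3%), against 61.3% of all.

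**Figure D3:**
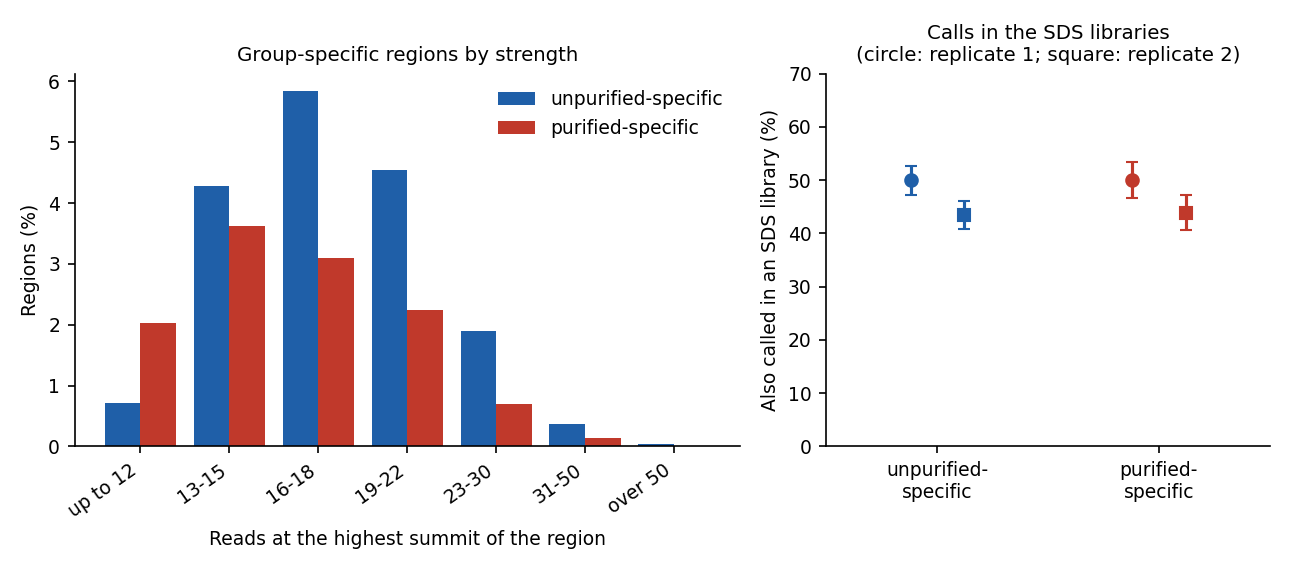
The left panel plots the percentage of the 49890 regions in each bin of summit reads (horizontal axis, reads at the highest summit) that were unpurified-specific or purified-specific, and the right panel the percentage of each set that SDS replicates 1 and 2 also called, with exact 95% intervals. Both sets are mostly of 13 to 22 reads, and their shares in the SDS libraries lie at 49.96% against 50.06% and at 43.4% against 43.9%.

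Motif letters were counted in the same window of every region, with the count over all 49890 regions as the background. The AP-1 letters TGANTCA, which FOS, JUN and the B cell factor BATF share, stood in 15.05% of unpurified-specific and 17.7% of purified-specific regions, against 13.9% of all. The SP and KLF letters GGGGCGGGG of GC-rich promoters stood in 4.15% and 3.41%, against 6.68% of all and 11.3% of those called by all 4. The ETS letters CCGGAAGT stood in 1.04% and 0.910%, against 1.76% of all. The letters CCACNAGGG of the insulator protein CTCF stood in 2.82% and 2.39%, against 1.65% of all. The RUNX letters TGTGGTT stood in 10.7% and 10.01%, against 10.3% of all, the YY1 letters AAGATGGC in 2.001% and 1.48%, against 1.52%, and the PU.1 letters GAGGAAGT in 2.97% and 2.73%, against 2.88%. The IRF letters GAAANNGAA stood in 10.8% and 11.3%, against 10.5%, and the OCT letters ATGCAAAT in 2.89% and 2.73%, against 2.42%. The NFY letters CCAATC stood in 6.82% and 5.46%, against 8.58%, and the NRF1 letters GCGCATGCG in 4 and 0 regions (0.297% and, by a count of 0, up to 0.341%), against 0.844%. Both sets thus lay on the same side of the background for 8 of the 11 motifs, and RUNX, YY1 and PU.1 lay on either side. No motif's letters contain another's, though those of ETS and PU.1 share their last 6.

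The strongest unpurified-specific promoter was that of PSMD4, whose product is a ubiquitin receptor of the proteasome's regulatory particle. Its region (chr1:151226968-151227478) held 24 and 26 reads at the summit in the unpurified replicates, no peak in either purified library, and 14 and 20 reads in the SDS replicates. The promoter of CAPN2, the catalytic subunit of the protease calpain 2 (chr1:223899990-223900469), held 24 and 22 reads in the unpurified libraries and 17 in SDS replicate 1. DHX30, an RNA helicase (chr3:47866343-47866675), held 18 and 19 reads and was called in no SDS library. C22orf23 (chr22:38349432-38349881) held 18 and 19 reads, and C1QL1, a secreted C1q-like protein (chr17:43045629-43046039), held 19 and 20. All 5 were thus moderate peaks, below the median of 33 reads of shared regions.

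Outside promoters, the unpurified-specific regions with the highest −log10 q began with an intron of LRRK2, a kinase gene of inherited Parkinson's disease (chr12:40719164-40719541), with 22 and 20 reads. An intronic region of MARCHF11, a membrane-bound ubiquitin ligase (chr5:16160827-16161239), held 21 and 20 reads, and one of NET1, an exchange factor for RhoA (chr10:5489480-5489973), held 26 and 25. The NET1 summit lay 1077 bp from the TSS, just outside the promoter window. The region nearest to NSMCE1, a subunit of the SMC5/6 complex (chr16:27285193-27285590), held 20 and 22 reads. An intergenic region far from any coding TSS, with that of the protocadherin gene PCDH7 the nearest (chr4:33270436-33270824), held 20 and 31 reads, and also 25 and 21 in the SDS libraries. Each of these 5 was also called in at least 1 SDS library.

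The strongest purified-specific promoter was that of NPEPPS, the puromycin-sensitive aminopeptidase (chr17:45608304-45608660). It held 17 and 20 reads in the purified replicates, no peak in the unpurified ones, and 21 and 15 reads in the SDS replicates. SLC48A1, a heme transporter (chr12:48152768-48153222), held 24 and 19 reads and was called in no SDS library. The zinc finger genes ZNF875 (chr19:37825332-37825702) and ZNF227 (chr19:44716367-44716943) held 16 and 15, and 19 and 15 reads. ATXN7L1, a relative of the SAGA subunit gene ATXN7 (chr7:105516968-105517414), held 23 and 15 reads. In reads, which scale with depth, the PSMD4 summit was higher than each of these 5 in its weaker library, at 24 against 15 to 19. The lower of the 2 fold enrichments over background was 7.35 at PSMD4, against 5.10 to 6.99 at these 5. The higher was 7.85 at PSMD4, below NPEPPS (8.38) and ATXN7L1 (8.70) and above the rest.

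Outside promoters, the strongest purified-specific region was intergenic, with STAMBP, a deubiquitinating enzyme, the nearest gene (chr2:74049278-74049793), and held 20 and 17 reads. The intergenic region nearest to C5orf22 (chr5:31573597-31574047) held 17 and 21 reads and was called in no SDS library. Introns of NEK10, a kinase of the NIMA family (chr3:27175609-27176042), and of MDGA2, a cell surface protein of neurons (chr14:47747441-47747861), held 20 and 18, and 22 and 16 reads. Of the 9 purified-specific regions given here 2 were called in both SDS libraries (NPEPPS and NEK10), and of the 10 unpurified-specific ones 2 were (PSMD4 and PCDH7).

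**Figure D4:**
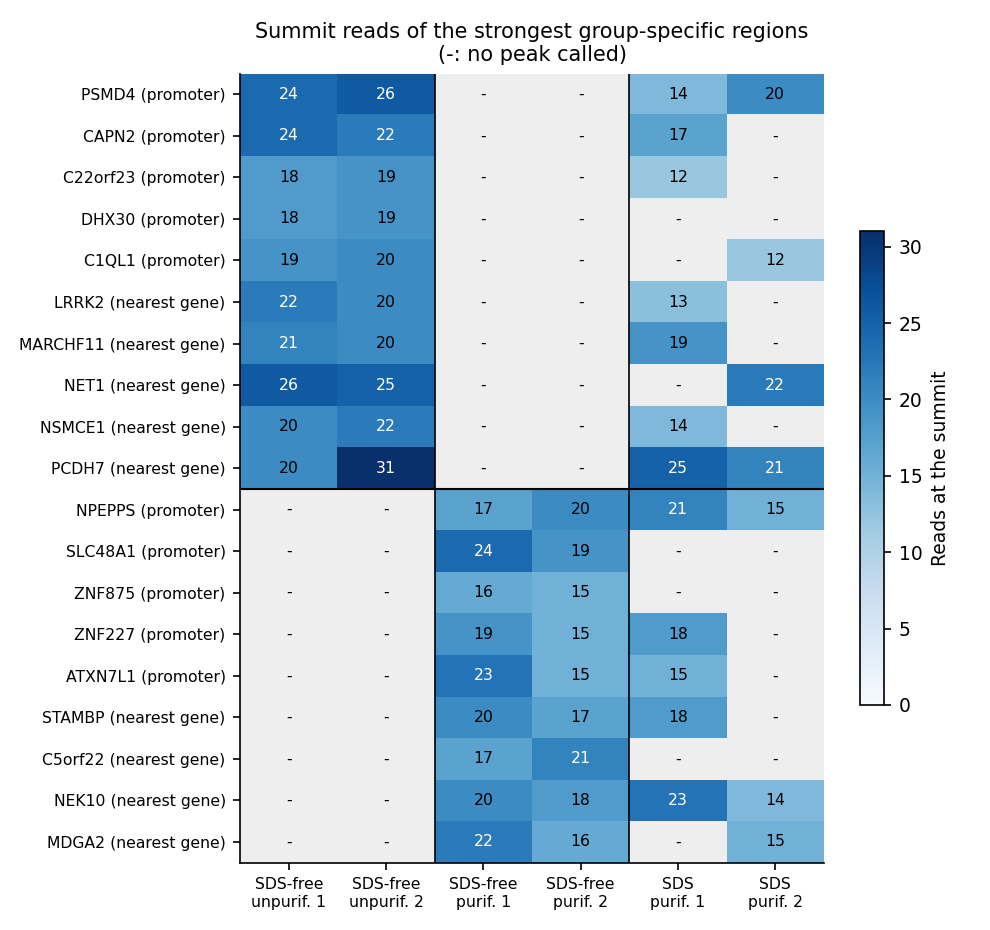
Rows are the strongest group-specific regions at promoters and outside promoters, 10 unpurified-specific and 9 purified-specific, columns are the 6 libraries, and colour and number give the reads at the summit (a dash where no peak was called). The rows were picked by the −log10 q of the weaker library and not by reads. The called summits of the 4 SDS-free libraries hold 15 to 31 reads, and 15 of the 19 regions have a peak in at least 1 SDS library.

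Gene by gene, a promoter was called in both unpurified and neither purified library for 138 of 19807 protein-coding genes (0.697%), and in both purified and neither unpurified library for 73 (0.369%). Both counts rise by construction when a group holds 1 library. Without purified replicate 2 they were 280 and 329, and without purified replicate 1 they were 595 and 176, so their order depended on the library left out. With 30136 peaks per list they were 134 and 101. In the lists of genes that a B lymphoblastoid line uses, 2 genes met either rule. Of 33 proteasome subunits 29 were called in all 4 libraries, and PSMD4 in the unpurified alone. Of 37 subunits of complex I, the first enzyme of the respiratory chain, 30 were called in all 4, and NDUFB10 (chr16:2009212-2009812) in the purified alone, with 37 and 16 reads and 17 reads in SDS replicate 1. NDUFB10 in purified replicate 1 was thus stronger than the named regions, while its weaker peak was of the same size as theirs.

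No gene of the other lists was specific to a group. DNA replication genes were called in all 4 libraries in 38 of 40 cases, with RFC1 (1 purified library) and FEN1 (both unpurified and 1 purified library) the exceptions. Chromatin remodelling and cohesin genes were called in 27 of 30 cases, and NF-kB subunits, regulators and targets in 18 of 23. B cell genes were called in 15 of 33 cases and genes of HLA and antigen processing in 14 of 28, near the 48.0% of all coding genes. Genes that define B cells were among those called in some libraries only. The promoter of PAX5, the B cell commitment factor, was called only in purified replicate 1, with 24 reads. CD79A, a signalling chain of the B cell receptor, was called in replicate 1 of each group, with 17 reads in the unpurified and 24 in the purified library.

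The last comparison was of signal strength in the 21844 regions called by all 4 libraries, from the log2 fold enrichment of the summit over local background, each library centred on its median. By limma with Benjamini-Hochberg adjustment over all regions, 0 regions were higher and 0 lower in the unpurified libraries (0.0% in each direction). At an unadjusted p under 0.05 there were 1050 regions (4.81%), of which 504 (2.31%) were higher and 546 (2.5%) lower. The median standard error of a log2 difference was 0.20, and 98.3% of the differences were within 0.5. The SD of the log2 difference between libraries over all regions was 0.278 and 0.287 for the 2 replicate pairs and 0.278 to 0.285 for the 4 pairs across groups. The regions called by all 4 thus varied as much within a group as between the groups. Regions that lost their call in a library, the group-specific ones among them, could not enter this comparison.

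The regions with the lowest p in each direction are given as not passing. An intronic region of USP8, an endosomal deubiquitinase (chr15:50736810-50737259), held 21 and 28 reads in the unpurified and 10 and 10 in the purified libraries, and 21 in SDS replicate 1. Its log2 difference in fold enrichment was 1.07 ± 0.21 (SE, limma adjusted p = 0.700), and it was the only region over 1. The intergenic region nearest to RAPGEF2 (chr4:161063535-161064232) was among the strongest, with 65 and 62 against 44 and 27 reads and a log2 difference of 0.51. The promoter of ZNF66 (chr19:20958761-20959749) had 58 and 51 against 38 and 33 reads (log2 difference 0.51), and regions nearest to ENTREP1 and NR2F2, the latter an orphan nuclear receptor, had log2 differences of 0.74 and 0.79. The direction of these regions is fixed by how they were picked.

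The 5 regions at the other end were all promoters. MTF1, the factor that induces metallothioneins in response to zinc (chr1:38325025-38325741), held 16 and 23 reads in the unpurified and 34 and 33 in the purified libraries, with 24 and 22 in the SDS libraries. Its log2 difference in fold enrichment was -0.85 ± 0.18 (SE, limma adjusted p = 0.818). KIAA1549 (chr7:138665802-138666542) held 14 and 13 against 28 and 24 reads, a log2 difference of -0.86. The promoters of TPM1, which encodes a tropomyosin, MED21, a Mediator subunit, and SH3D21 had log2 differences of -0.79, -0.74 and -0.69. Their windows held 64.2% to 86.1% GC, while the 5 regions higher in the unpurified libraries held 39.8% to 58.2%.

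**Figure D5:**
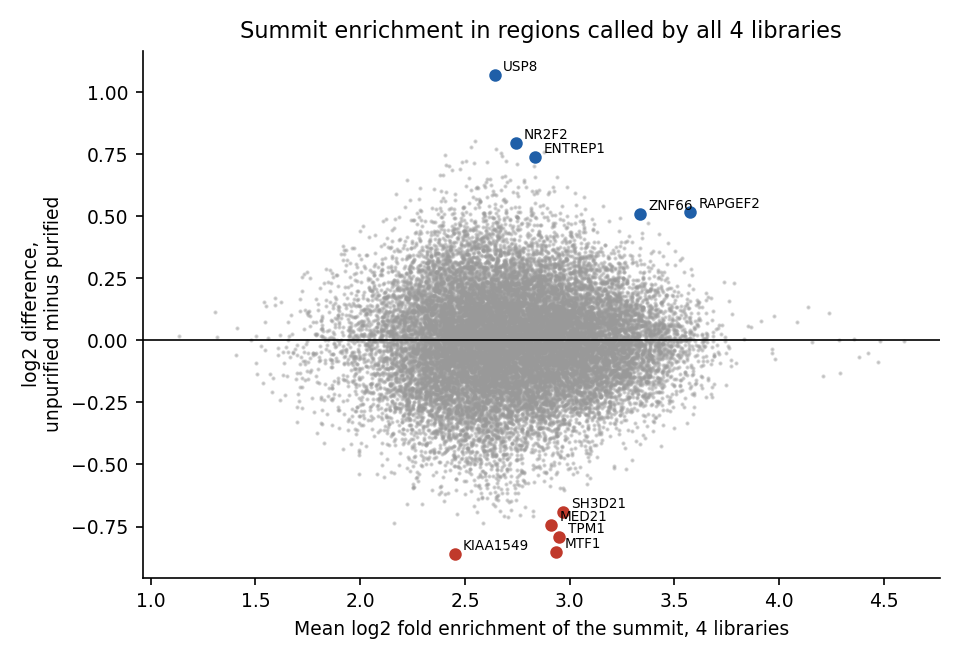
Each point is 1 of 21844 regions called by all 4 libraries, with the mean log2 fold enrichment of the summit on the horizontal axis and the log2 difference, unpurified minus purified, on the vertical axis. USP8 stands highest at 1.07 and KIAA1549 lowest at -0.86, and none of the 10 named regions passed the adjusted test.

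That contrast of GC content was not carried by the regions as a whole. In the 4303 regions with 70% GC or more, the median log2 difference was 0.0024, with 50.5% of regions higher in the unpurified libraries, and in the 3190 with under 40% GC it was 0.0058, with 51.4% higher. By gene class the median log2 difference of the 8619 coding promoters was -0.0017, with 209 regions higher and 196 lower at an unadjusted p under 0.05. These counts were 93 and 140 in the 4456 intergenic regions, and 133 and 144 in the 5702 introns. The 945 lncRNA promoters had the largest difference between group means of any class, at -0.021, with library medians of -0.034 and -0.024 in the unpurified against -0.013 and -0.0026 in the purified libraries (p = 0.33, exact permutation test, the smallest possible). Coding exons (0.011) and intergenic regions (-0.0093) also did not overlap between the groups, and the other 3 classes and all 5 bins of GC content did.

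Promoters of the lists lay within the range of all regions, and 0 regions of any list passed the adjusted test. The promoter of CD74, the invariant chain of HLA class II, held 78 and 65 reads in the unpurified and 71 and 60 in the purified libraries (log2 difference 0.01). MS4A1, which encodes CD20, held 39 and 49 against 52 and 40 reads (-0.16), and EBF1, a factor that specifies B cells, 40 and 47 against 44 and 42 (-0.05). The 14 B cell promoters had a median log2 difference of -0.06, between -0.24 at RUNX3 and 0.28 at EBI3, and the 17 NF-kB promoters one of 0.03, between -0.38 at RELB and 0.27 at NFKB2. RELB, a subunit of the noncanonical NF-kB dimer, held 30 and 32 against 37 and 37 reads, with an unadjusted p of 0.0414 and an adjusted limma p of 0.998. The median over all regions tested was -0.0021.

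Subunits of the same machines lay on both sides of 0. Among the 38 replication promoters 19 were higher and 19 lower, with ORC3 of the origin recognition complex the lowest (38 and 35 against 51 and 38 reads, log2 difference -0.41) and GINS3 of the replicative helicase the highest (37 and 25 against 27 and 20 reads, 0.40). Among the 30 complex I promoters 12 were higher and 18 lower, with NDUFA7 the lowest at -0.56 (15 and 16 against 20 and 23 reads). Among the 29 proteasome promoters 12 were higher and 17 lower, with the ubiquitin receptor gene ADRM1 the highest at 0.39. Of the 27 chromatin promoters 10 were higher and 17 lower, from NIPBL, the cohesin loader, at -0.51 to SMARCB1, a subunit of SWI/SNF, at 0.44. The unadjusted p of these extremes was 0.00620 at ORC3 and 0.0116 at NDUFA7, and their adjusted limma p was 0.996 each.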

How the data were processed

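ATAC-seq peak lists of 6 GM12878 libraries were used, 2 for each of 3 protocols, with groups and replicate numbers from the sample titles. Per the labels and methods, the authors mapped reads to hg19 with Bowtie2 2.1.0, left out mitochondrial reads, removed duplicates with Picard 1.79, and ran MACS2 for narrow peaks (version not given in the sources used here) at a q value of 0.01. The methods describe samples of 1 condition as merged before peak calling, but there is 1 list per library. Each deposited peak has a score (−log10 q times 10), the fold enrichment of the summit over local background (a linear ratio), and −log10 values of p and q, all from the authors' peak caller. The deposited lists hold no counts, so no count test could be run. Depth is relative only.

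Summit pileups were solved from fold enrichment and −log10 p (100% of peaks within 0.001), and they set the precision of a call, with medians of 20 to 22 reads per library. Peaks of all 6 lists were merged where they overlapped or adjoined, and an overlap of 1 bp with a peak made a region called in that library. Classes used 78714 coding TSSs of GENCODE 44 on GRCh37 and windows of 1 kb. Libraries were the replicates in exact two-sided permutation tests, adjusted over 15 measures. Log2 fold enrichment was tested with limma 3.58.1 (trend, R 4.3.3). The named regions were the 5 at promoters and the 5 outside ranked by the −log10 q of the weaker library, without chromosomes Y and 8, and the 5 of lowest limma p in each direction. List members were named where they were specific to a group. Of the regions that fit this rule, 1 is not reported here. Further list genes (the extremes of a list, CD74, MS4A1, EBF1, PAX5, CD79A, RFC1 and FEN1) were picked with their values in view. The members and lists were chosen with earlier results of these data known. Sequences came from the GRCh37 assembly. Scripts (Python 3.11.15, SciPy 1.17.1, pandas 2.3.3) were tested on simulated data and against bedtools 2.31.1. Alternatives were peaks of −log10 q 5 or more, the autosomes alone, 30136 peaks per library, other windows, overlap rules, centring and fits, each replicate left out, and a replicate block.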

Additional observations from a re-analysis of the deposited data

How the results depend on the processing

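Under alternatives other than leaving out a library, 97 recomputed values of the main comparisons kept their direction, 5 turned round and 2 changed in another way. Size was not always kept. The difference in mean width was 2.64 bp, but 12.1 bp with 30136 peaks per library and 0.025 bp with peaks of −log10 q 5 or more. That in coding promoters went from -0.68 to -0.051 percentage points with 30136 peaks per library. With an equal number of 30136 peaks per library, differences turned round for median width (11.5 bp) and intergenic share (-0.033 percentage points). They also did for mean GC (0.060), summits under 40% GC (-0.033) and summits over 65% GC (0.27). In these 5 measures the groups overlapped as before. In coding exons they no longer did, with a difference of -0.066 points (p = 0.33, exact permutation test, the smallest possible). Leaving out each replicate in turn, the difference of unpurified minus purified ran from -5 to 3 bp in median width, -1.43 to 6.70 bp in mean width, 0.032 to 0.61 points in peaks over 1 kb, -0.041 to 0.095 in log2 width of shared regions, -3.10 to 1.74 points in coding promoters, -0.027 to 0.082 in lncRNA promoters, -0.88 to 1.73 in introns, -0.33 to 0.41 in other genes, -0.49 to 1.01 in intergenic sequence, -0.81 to 0.51 in mean GC, -0.37 to 1.13 in summits under 40% GC and -2.25 to 1.69 in summits over 65% GC. The difference in distance to the TSS stayed at -2 to -1 bp when a replicate was left out, and was -2.5 bp (p = 0.67, exact permutation test) with 30136 peaks per library. A group of 1 library makes its specific set larger by construction. Unpurified-specific regions ran from 2222 (without purified replicate 2) to 5392 (without unpurified replicate 2), purified-specific ones from 1924 to 6090 (the same libraries in reverse order), genes with promoters called in the unpurified alone from 280 (without purified replicate 2) to 595 (without purified replicate 1), and in the purified alone from 176 to 329 (those libraries in reverse order). The limma count of higher regions ran from 0 to 5, of lower regions from 0 to 0. It was 5 without purified replicate 1 (RAPGEF2, adjusted p = 0.0478, and NR2F2, 0.0430, among them) and 1 without purified replicate 2 (USP8, 0.0473), where the lone library is assumed to vary like the others. The replicate numbers only name the libraries, since deviations of same-numbered libraries had r = 0.015, -0.0008 and 0.013 over regions for the 3 pairs of groups. With the replicate number as a block limma called 1 higher (USP8, adjusted p = 0.0136) and 1 lower region (MTF1, 0.0448). The cause of these changes was not tested. With 2 libraries a group, no exact test could pass 0.05, and regions of 10 to 20 reads were near the limit of calling.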
